A study of Mus musculus with 24 samples.

Results

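The genes described here encode 7 enzymes of cholesterol synthesis, Hmgcs1, Idi1, Fdps, Fdft1, Sqle, Cyp51 and Msmo1. They were chosen by name, for their place in the pathway, out of 16572 gene names in the table of RNA-seq values, and each name stands in a single row. They fall into 3 genes for steps that use molecular oxygen (Sqle, Cyp51 and Msmo1) and 4 genes for steps that do not. The study grew immature mouse oocytes outside the follicle, in a low and a high concentration of oxygen, and asked how oxygen affects DNA methylation and transcription. Total RNA, depleted of ribosomal RNA, was sequenced from pooled oocytes of the largest size class, class IV, labelled 60 to 70 µm. The RNA-seq has 2 libraries per condition, and the deposited table holds 1 combined value per gene and condition, so no spread between libraries, no SD and no p-value can be given for any value below. The other libraries of the series measured DNA methylation and were not used.

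Both conditions, called IV 5% O2 and IV 20% O2, started from ovaries of 7 day old mice, labelled C57BL/6 Barb, while the study's methods give a cross of C57 Black6 with SV129. The ovaries were digested with trypsin and collagenase and the cells were plated on gelatine. IV 5% O2 oocytes grew for 9 days with fresh medium every 24 h, and IV 20% O2 oocytes grew for 14 days with fresh medium every 48 h. Oxygen, days of culture and medium change therefore cannot be told apart in any difference below. The methods also give a smaller size window for IV 20% O2 oocytes than the labels do. Ovarian somatic cells were present on the plates at the start, and in such pooled samples fewer cells of a type and less RNA per cell cannot be told apart.

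Cholesterol is built from acetyl-CoA through mevalonate and the isoprenoid diphosphates to squalene, the first molecule of the chain committed to sterols. Squalene is then oxidised, closed into the ring system of lanosterol, stripped of methyl groups and desaturated to give cholesterol. The pathway is switched as a unit by the transcription factor SREBP-2 (Srebf2), which the escort protein Scap carries out of the endoplasmic reticulum when sterols are scarce and which Insig proteins hold back when sterols are plentiful. In the ovarian follicle the mouse oocyte is known to rely on its surrounding granulosa and cumulus cells for cholesterol, and the oocytes of these cultures grew without an intact follicle around them. Squalene epoxidase (Sqle), lanosterol demethylase (Cyp51) and methylsterol monooxygenase (Msmo1) each consume molecular oxygen.

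The start regions of the genes are shown because SREBP-2 acts there together with NF-Y and Sp1. RefSeq promoter windows on GRCm38.p6, which hold 250 bases before and 50 bases after a start, were found for 4 of the 7 members, Hmgcs1, Idi1, Cyp51 and Msmo1. The core of the sterol regulatory element was searched as CACCCCAC, the NF-Y box as CCAAT and the GC box of Sp1 as GGGCGG, all on both strands. In the stretches printed here, those letters or their reverse complements are in capitals, together with the T before the sterol element of Hmgcs1, where the looser form TCACNCCAC also matched over the same bases. The Hmgcs1 stretch lies at chr13:119690101-119690350 on the plus strand and runs up to the base before the start, and the Cyp51 stretch lies at chr5:4104747-4104947 on the minus strand and ends 50 bases before it.
Hmgcs1: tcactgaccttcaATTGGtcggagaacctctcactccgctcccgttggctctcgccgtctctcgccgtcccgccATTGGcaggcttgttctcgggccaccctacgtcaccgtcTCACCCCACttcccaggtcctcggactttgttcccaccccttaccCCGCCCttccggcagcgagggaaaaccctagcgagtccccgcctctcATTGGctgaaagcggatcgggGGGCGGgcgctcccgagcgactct
Cyp51: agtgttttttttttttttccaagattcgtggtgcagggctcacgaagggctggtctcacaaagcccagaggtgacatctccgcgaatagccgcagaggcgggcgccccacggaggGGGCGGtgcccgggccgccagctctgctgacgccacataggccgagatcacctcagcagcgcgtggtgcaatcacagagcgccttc

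Among the 4 members with a window, only Hmgcs1 held the sterol element core. The match began 136 bases before the start. This core stood in 2.87% of 32851 RefSeq windows of that length, and TCACNCCAC in 1.24%. In the whole pathway, 17 of 22 genes had a window and Acat2 was the other gene with the core. The NF-Y box and the GC box were each in all 4 member windows, against 37.4% and 35.7% of all windows. The hypoxia response core ACGTG was in none of the 4 and in 19.6% of all windows, and its form GCGTG was in 3 of the 4 (Idi1, Cyp51 and Msmo1) and in 32.4% of all windows. The E-box CACGTG, whose middle letters are part of ACGTG, was in none of the 4 and in 7.15% of all windows. Each of the 4 members had 1 window. These are letter matches and say nothing of binding.

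All 7 members had reads in both conditions. Their positions are given as the table lists them, on GRCm38. Values are reads scaled to the column depth (RPM), recovered as whole reads from the deposited values, with a column depth of 132185258 reads for IV 5% O2 and 40875358 reads for IV 20% O2. The ranges given with each ratio are exact 95% intervals for counting error alone. They compare these pooled libraries, not the conditions, and would be too narrow if reads are not independent molecules, as no molecular identifiers are described. Differences are given on log2(RPM + 1), IV 5% O2 minus IV 20% O2, and a gene is called here if it is at least 2-fold apart on that scale, among genes averaging 1 RPM or more over both columns. The added 1 RPM makes the change of low genes look smaller than it is.

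The enzymes up to squalene are taken first. Hmgcs1 (chr13:119690379-119708260, plus strand), which makes HMG-CoA for the mevalonate route, had 369 RPM at 5% O2 and 271 RPM at 20% O2. Its RPM was 1.36 times as high in IV 5% O2 (1.33 to 1.39), a difference of 0.44 on log2(RPM + 1). Hmgcs1 was thus higher in IV 5% O2 but far from 2-fold, with 48819 and 11092 reads behind the values.

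Idi1 (chr13:8885501-8892451, plus strand), the isomerase that supplies the activated isoprene unit, had 46.1 RPM at 5% O2 and 33.1 RPM at 20% O2. The ratio was 1.39 (1.31 to 1.48), and the log2(RPM + 1) difference was 0.46. Idi1 differed about as much as Hmgcs1, but its reads are the least certain among the members, since 68.0% of the 50-base windows along its exons occur more than once in the genome. For the other members that share was between 0.758% (Cyp51) and 13.2% (Fdps).

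Fdps (chr3:89093588-89101959, minus strand), which joins isoprene units into farnesyl diphosphate, went the other way, with 26.7 RPM at 5% O2 and 35.3 RPM at 20% O2. The ratio of IV 20% O2 over IV 5% O2 was 1.32 (1.24 to 1.40), and the log2(RPM + 1) difference was -0.39. Fdps was the only one of the 4 members for steps without oxygen that was lower in IV 5% O2. It shares 1124 exonic bases, 26.7% of its own, with Gm43738 on the same strand, and Gm43738 was listed higher in IV 5% O2, at 50.4 RPM against 35.9 RPM. How reads in the shared bases were divided is not stated, so the Fdps value is uncertain.

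Fdft1 (chr14:63145150-63179578, minus strand), squalene synthase, makes the last product before oxygen is needed. It had 699 RPM at 5% O2 and 425 RPM at 20% O2, the highest RPM of any member in both conditions. Its RPM was 1.64 times as high in IV 5% O2 (1.62 to 1.67), and the log2(RPM + 1) difference of 0.72 was the largest positive one among the members. On the opposite strand, 18.3% of its exonic bases overlap Ctsb, which had 124 RPM at 5% O2 and 104 RPM at 20% O2. For Hmgcs1 the opposite-strand overlap was 12.1%, with Gm48342 at 72.1 RPM and 107 RPM. For Idi1 it was 9.22%, with Gm48574, which has no value in the table. The libraries kept strand, but whether the counting used it is not stated.

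Sqle (chr15:59315077-59331192, plus strand) puts the first oxygen atom on squalene. It had 32.0 RPM at 5% O2 and 22.1 RPM at 20% O2, a ratio of 1.45 (1.35 to 1.56) and a log2(RPM + 1) difference of 0.51. Of the 3 oxygen-using members it was the only one higher in IV 5% O2, and its difference lay between those of Idi1 and Fdft1.

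Cyp51 (chr5:4081145-4104746, minus strand) removes a methyl group from lanosterol, and its product is the meiosis-activating sterol of follicular fluid. It had 14.5 RPM at 5% O2 and 16.7 RPM at 20% O2. The ratio of IV 20% O2 over IV 5% O2 was 1.15 (1.06 to 1.26), and the log2(RPM + 1) difference was -0.19. With median-ratio scaling it was -0.49. On the opposite strand, 3.76% of the exonic bases of Cyp51 overlap Akap9, which had 45.5 RPM at 5% O2 and 43.9 RPM at 20% O2.

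Msmo1 (chr8:64718139-64733792, minus strand) acts on the sterol that Cyp51 and the next reductase deliver, oxidising the methyl groups that are then lost. It had 18.3 RPM at 5% O2 and 53.4 RPM at 20% O2, on 2420 and 2184 reads. Msmo1 stood 2.92 times as high in IV 20% O2 (2.75 to 3.09), and its log2(RPM + 1) difference of -1.50 made it the single member at least 2-fold apart. Repeated sequence was 2.76% of its 50-base windows, and no other annotated gene shared exonic bases with it.

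**Figure D1:**
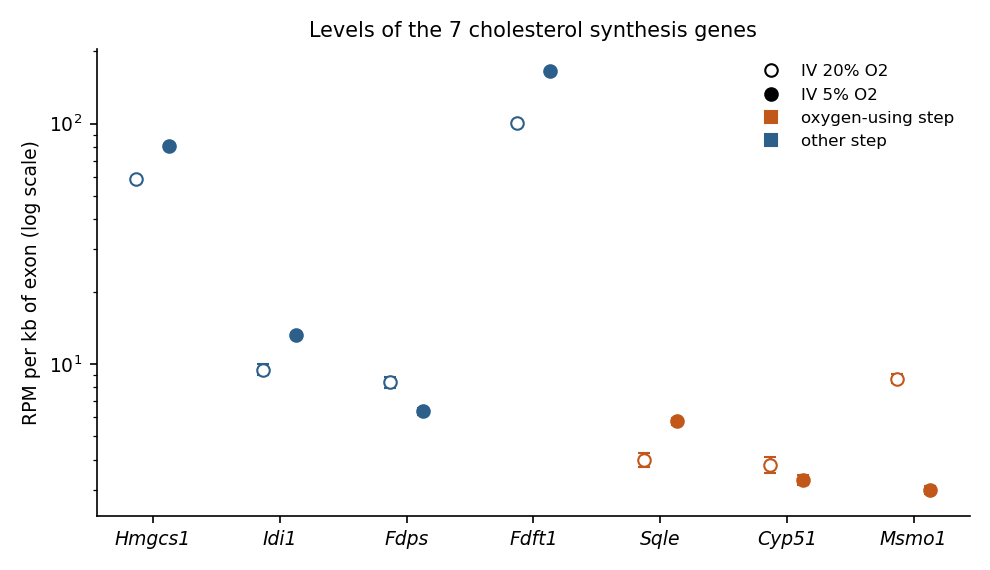
Level of each of the 7 genes in RPM per kb of exon (log axis), with open circles for IV 20% O2, filled circles for IV 5% O2, orange for oxygen-using steps, blue for other steps and bars for 95% counting intervals (mostly within the symbols). Fdft1 and Hmgcs1 sit far above the rest in both conditions, and Msmo1 lies at 8.70 in IV 20% O2 and at 2.98 in IV 5% O2.

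Counted together, 0 of 7 members were at least 2-fold higher in IV 5% O2, where 18.7% of the 14704 genes averaging 1 RPM or more were, and 1 of 7 was at least 2-fold lower, where 9.22% of all were. A count of 1 in 7 is near that background. Of the members, 4 had positive and 3 had negative differences, with a median of 0.44 on log2(RPM + 1), beside a median of 0.26 over all those genes. The middle 50% of all genes lay between -0.31 and 0.82, and 5 of the 7 members lay inside that range. The members outside it were Fdps and Msmo1. Only 4.83% of all genes had a difference as low as that of Msmo1 or lower, while 29.1% had one as high as that of Fdft1 or higher.

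**Figure D2:**
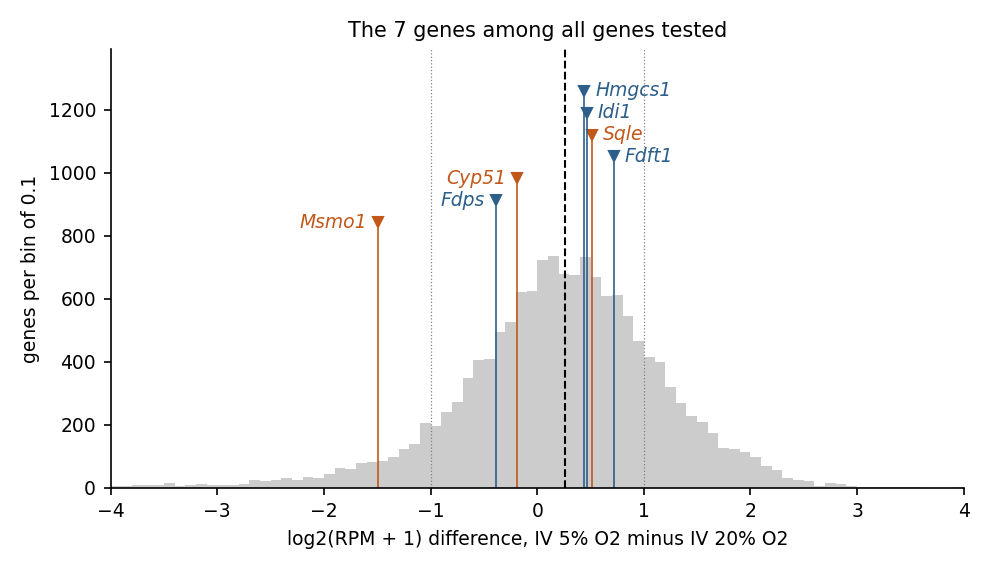
Histogram of log2(RPM + 1) differences, IV 5% O2 minus IV 20% O2, of 14704 genes in bins of 0.1, with the 7 genes as vertical lines (orange for oxygen-using steps, blue for other steps), a dashed line at the median of all genes and dotted lines at 2-fold. Hmgcs1, Idi1, Sqle and Fdft1 lie just to the right of the median and Msmo1 lies in the left tail at -1.50, while 76 genes fall outside the axis.

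The oxygen-using members did not move as a block. Their differences ran from -1.50 (Msmo1) through -0.19 (Cyp51) to 0.51 (Sqle), a median of -0.19, and those of the 4 other members ran from -0.39 (Fdps) to 0.72 (Fdft1), a median of 0.45. The medians were 0.65 apart, the oxygen-using one being the lower. The ranges of both groups overlap, since Sqle was above Hmgcs1 and Idi1, and Fdps was below Cyp51. With 3 and 4 genes from 1 pair of pooled columns this contrast is a description without a test.

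Within a column, ratios between members do not change when a column is multiplied by 1 factor, as in median-ratio scaling, though they do under quantile normalization. Per kb of exon, Msmo1 was at 0.907 times Cyp51 in IV 5% O2 and at 2.29 times Cyp51 in IV 20% O2. Against Sqle, Msmo1 was at 0.517 times in IV 5% O2 and at 2.18 times in IV 20% O2. So the oxygen-using member with the highest level changed from Msmo1 in IV 20% O2 to Sqle in IV 5% O2. Sqle over Cyp51 went from 1.05 in IV 20% O2 to 1.75 in IV 5% O2. Among the other members, Idi1 over Fdps went from 1.13 in IV 20% O2 to 2.07 in IV 5% O2, and Fdps over Fdft1 from 0.0833 in IV 20% O2 to 0.0384 in IV 5% O2. These ratios depend on the length used. With the longest transcript, Msmo1 was at 6.17 and Sqle at 7.16 RPM per kb in IV 5% O2. In IV 20% O2 they were at 18.0 and 4.95, and Fdps was above Idi1.

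Levels of different genes were compared per kb of annotated exon, with exons from GENCODE. The study's methods name an oocyte annotation, but 16396 of the 16572 names had the coordinates of a GENCODE gene. Which exons were counted is therefore not certain. In IV 5% O2 the order was Fdft1 at 165, Hmgcs1 at 80.4, Idi1 at 13.1, Fdps at 6.35, Sqle at 5.76, Cyp51 at 3.28 and Msmo1 at 2.98 RPM per kb. Each neighbour in that order differed from the next by more than counting error, the closest pairs being Fdps and Sqle at a ratio of 1.10 (1.05 to 1.15) and Cyp51 and Msmo1 at 1.10 (1.04 to 1.17). In IV 20% O2 the order was Fdft1 at 101, Hmgcs1 at 59.1, Idi1 at 9.46, Msmo1 at 8.70, Fdps at 8.38, Sqle at 3.98 and Cyp51 at 3.79 RPM per kb. There Msmo1 and Fdps did not differ beyond counting error, at a ratio of 1.04 (0.970 to 1.11), nor did Sqle and Cyp51, at 1.05 (0.951 to 1.16).

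The members were uneven in amount. Fdft1 and Hmgcs1 made up 88.6% of the summed RPM per kb of the 7 members in IV 5% O2 and 82.3% in IV 20% O2. By RPM per kb of exon, Fdft1 ranked above 99.2% and Hmgcs1 above 97.4% of all genes of the IV 5% O2 column. The highest member per kb was 55.5 times the lowest in IV 5% O2 and 26.6 times in IV 20% O2. The oxygen-using members were in the lower part in both columns, except that Msmo1 stood beside Fdps and Idi1 in IV 20% O2. With the longest transcript as the length, Msmo1 was instead above Cyp51 in IV 5% O2, at 6.17 against 3.69 RPM per kb, and it stood above Fdps and Idi1 in IV 20% O2.

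The other 15 genes of the pathway all had reads in both conditions, and 14 averaged 1 RPM or more. Of these 14, 2 were at least 2-fold higher and 2 at least 2-fold lower in IV 5% O2, beside 18.7% and 9.22% of all genes, so neither count stands out from the background. Their median was -0.14 on log2(RPM + 1), against 0.26 for all genes. Mvd, which makes isopentenyl diphosphate, the substrate of Idi1, was higher in IV 5% O2, at 16.2 RPM against 4.99 RPM (log2 difference 1.52). Sc5d, a sterol desaturase and the fourth oxygen-using enzyme of the pathway, was also higher, at 88.2 RPM against 42.3 RPM (1.04). The Sc5d value lay just over the 2-fold line and under it, at 0.73, with median-ratio scaling.

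Both genes that were at least 2-fold lower stand at the ends of the pathway. Acat2, a thiolase at its entry, had 5.67 RPM at 5% O2 and 22.2 RPM at 20% O2 (log2 difference -1.80), with 42.9% of its 50-base windows repeated in the genome. Dhcr7, the last reductase of one of the final routes, had 3.34 RPM and 12.1 RPM (-1.60), and was at -0.97 when the 1 was added to RPM per kb instead. Mvk, mevalonate kinase, stayed under the level filter with 1 read in IV 5% O2 and 45 reads in IV 20% O2, a log2 ratio between -12.5 and -4.63 by counting error.

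The other pathway genes above the level filter stayed within 2-fold, except that Tm7sf2, at -0.82, was at -1.11 with median-ratio scaling. Lss, which closes the ring between the steps of Sqle and Cyp51, had 12.6 RPM at 5% O2 and 16.8 RPM at 20% O2 (log2 difference -0.40). Lbr, a sterol reductase that is also a nuclear membrane protein, was the most abundant of the 15 in RPM, at 328 and 245 in the same order (0.42).

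**Figure D3:**
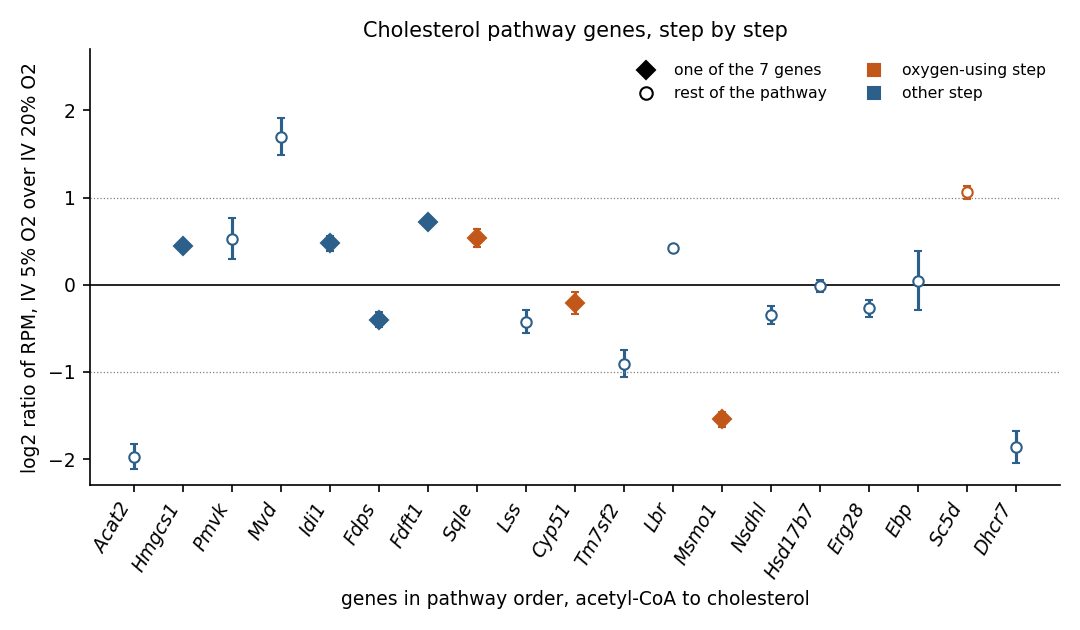
Log2 ratio of RPM, IV 5% O2 over IV 20% O2, without a pseudocount, for 19 pathway genes in order from acetyl-CoA to cholesterol, with diamonds for the 7 genes, circles for the rest, orange for oxygen-using steps, bars for 95% counting intervals and dotted lines at 2-fold (not every gene of the pathway is plotted). Most plotted genes up to Sqle lie above 0, except Acat2 and Fdps. Most after Sqle lie below 0, except Lbr, Sc5d and, at 0.045, Ebp, and Mvk, not plotted, is lower in IV 5% O2.

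Read along the pathway, the 8 genes up to squalene averaging 1 RPM or more had a median difference of 0.44 on log2(RPM + 1), 6 of them positive. The 13 genes from squalene on had a median of -0.26, 4 of them positive, and 9203 of all 14704 genes were positive. Split instead by the use of oxygen, the 4 oxygen-using genes ran from -1.50 (Msmo1) to 1.04 (Sc5d) with a median of 0.16, and the 17 others had a median of -0.02. Relative to the median gene, the median of these 4 oxygen-using genes was at -0.10. Sc5d over Msmo1, per kb of exon, was 1.00 in IV 20% O2 and 6.08 in IV 5% O2. With the longest transcript as the length, Sc5d was at 8.84 and Msmo1 at 18.0 RPM per kb in IV 20% O2. In IV 5% O2 they were at 18.4 and 6.17. The split by place in the pathway was made with the values known.

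Genes that serve the oxygen-using enzymes were listed apart. Por, the reductase that passes electrons to Sqle and Cyp51, had 31.7 RPM at 5% O2 and 12.9 RPM at 20% O2 (log2 difference 1.24). Cyb5a, the cytochrome b5 that passes electrons to Msmo1 and Sc5d, had 51.3 RPM and 27.2 RPM (0.89). Sec14l2, a lipid-binding protein that stimulates Sqle, had 6.07 RPM and 3.06 RPM (0.80). Of these 7 partner genes, 1 (Por) was at least 2-fold higher in IV 5% O2 and none was lower, where 18.7% of all genes were higher, and their median was 0.49 against 0.26 for all genes. Por, too, was under 2-fold with median-ratio scaling, at 0.94.

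The list of SREBP control held 20 names, 1 of them an older name of another, and all 19 genes were in the table at an average of 1 RPM or more. In IV 5% O2, 3 were at least 2-fold higher and 1 was lower, with a median of -0.16 on log2(RPM + 1), beside 18.7% higher, 9.22% lower and a median of 0.26 for all genes, so the counts do not exceed the background. With median-ratio scaling, 0 were higher and 4 lower, where 1700 of all 14634 genes were higher and 2031 lower. Srebf2, which encodes SREBP-2, had 23.1 RPM at 5% O2 and 8.98 RPM at 20% O2 (log2 difference 1.27). Srebf1, its relative for fatty acid genes, had 105 RPM and 53.1 RPM (0.97), and Scap had 293 RPM and 152 RPM (0.95).

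The Insig genes differed in size of change. Insig1 had 423 RPM at 5% O2 and 365 RPM at 20% O2 (log2 difference 0.21), whereas Insig2 had 3.57 RPM and 12.0 RPM (-1.51). Nfyb, a subunit of NF-Y, had 28.6 RPM and 11.1 RPM (1.29). With median-ratio scaling Srebf2 was at 0.98 and Nfyb at 0.99, so neither stayed over the 2-fold line, while Insig1 was at -0.11 and Insig2 at -1.78. With a pseudocount of 5 RPM Insig2 was at -0.99.

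Markers of the sampled cells and of other ovarian cells were measured beside these genes, and their counts stand against the same 18.7% of all genes higher and 9.22% lower in IV 5% O2. All 12 oocyte markers had reads in both columns, and the most abundant were Zp2, Gdf9 and Nlrp5, which had at least 1537 RPM in each. The oocyte marker list had a median of -0.17, and 3 of 12 were at least 2-fold lower in IV 5% O2. Theca and stroma markers, of which 11 of 18 were in the table, summed to 52.0 RPM at 5% O2 and 17.5 RPM at 20% O2, and 6 of the 8 averaging 1 RPM or more were at least 2-fold higher in IV 5% O2. The highest of them in IV 5% O2 were Cyp11a1, at 16.4 RPM against 0.122 RPM, Ptch1, at 6.69 RPM against 12.0 RPM, and Hsd3b1, at 5.96 RPM against 0.489 RPM. Dcn, Col1a2 and Vim were without a read at 20% O2. The level filter takes the mean of both columns. Cyp11a1, Hsd3b1, Postn, Vim and Dcn were each under 1 RPM at 20% O2 and passed it only through IV 5% O2. The count of 6 is therefore partly set by the filter.

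Granulosa markers, of which 6 of 14 were in the table, summed to 41.3 RPM at 5% O2 and 29.8 RPM at 20% O2, led by Nr5a2, Kitl and Cyp19a1, and 1 of the 4 averaging 1 RPM or more was at least 2-fold higher in IV 5% O2. That marker was Inhba, at 2.63 RPM against 0.758 RPM, which passed the level filter only through IV 5% O2. Fshr had no reads in IV 5% O2 and Inha none in IV 20% O2. Macrophage markers (6 of 12 in the table) summed to 31.7 RPM and 24.8 RPM, with 2 of 5 higher. They were led by Csf1r, which was lower in IV 5% O2 (9.28 RPM and 15.0 RPM), Cd68 and C1qb. Endothelial markers (5 of 8) summed to 121 RPM and 286 RPM, with 1 of 4 higher and 1 lower. Vwf, at 55.5 RPM and 248 RPM, set the direction of that sum, since the other 4, led by Pecam1 (45.9 RPM and 32.7 RPM) and Tek (13.8 RPM and 3.40 RPM), were each higher in IV 5% O2. Steroid-making theca cells also use the cholesterol pathway, and the part of any somatic RNA in the differences of Fdft1, Hmgcs1 or Sqle was not tested.

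The members kept their signs under every scaling tried. Median-ratio scaling of the columns shifted the log2 ratio of every gene by -0.32, which put the median of all genes at -0.04, and it changed the share of higher genes among all called genes from 67.0% to 45.6%. Relative to the median gene, 4 members stayed above it and 3 below, as Hmgcs1 was at 0.19, Idi1 at 0.20, Sqle at 0.26, Fdft1 at 0.46, Cyp51 at -0.45, Fdps at -0.65 and Msmo1 at -1.75 from it on log2(RPM + 1). The shift is of the same order as the differences of Hmgcs1, Idi1 and Sqle, and small beside that of Msmo1.

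**Figure D4:**
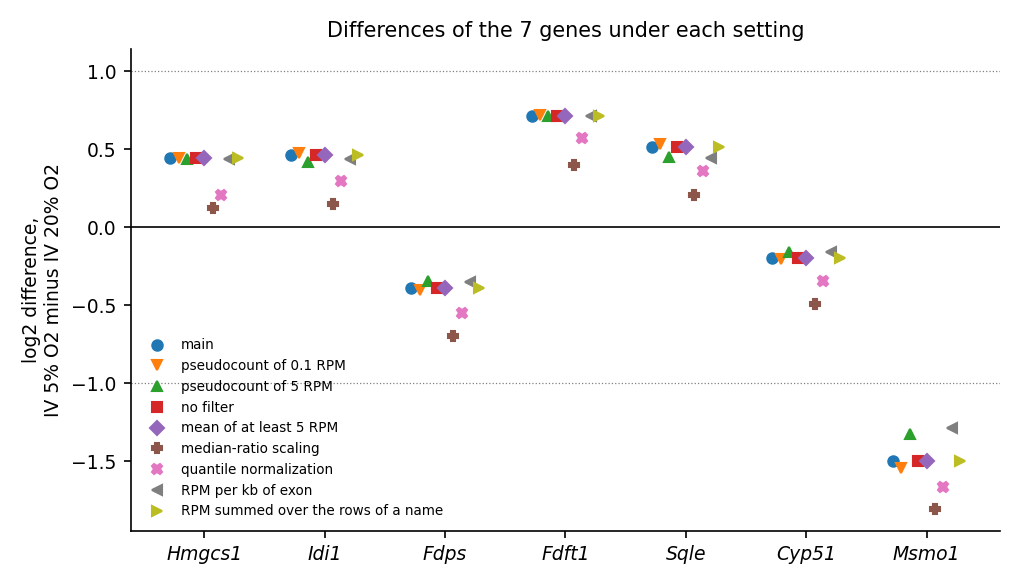
Log2 difference, IV 5% O2 minus IV 20% O2, of each of the 7 genes under 9 settings of pseudocount, level filter, scaling, row summing and RPM per kb, with dotted lines at 2-fold. Length is the same in both columns, so RPM per kb shifts a value only through the added 1. Every gene keeps its sign in every setting, though only median-ratio scaling and quantile normalization could change a sign. Msmo1 stays below -1 throughout, and median-ratio scaling gives the lowest value for each gene.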

How the data were processed

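RNA-seq values of class IV oocytes were used. The authors aligned reads to GRCm38 (the submitters' processing notes name TopHat2 2.0.9 and Trim Galore 0.2.8 and 0.3.5), merged reads over exons of an oocyte annotation in SeqMonk, and deposited log2 values, 1 column per condition. How the 2 libraries were combined is not given in the sources used here, and 1 other value column was not used. The deposited log2 values are named for a length correction, but their linear values are whole multiples of 1 step per column, within 0.05 of a read for 99.93% (IV 5% O2) and 99.98% (IV 20% O2) of rows, and were read as RPM. Genes without reads, listed at 0.9 of a read, were set to 0.

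Differences were taken on log2(RPM + 1) for genes averaging 1 RPM or more, and genes at least 2-fold apart were counted. Of 16572 names, 18 had more than 1 row, and the row with the highest mean was used. Exon lengths came from GENCODE vM21, matched by coordinates for 16396 names and by name for 157. Clopper-Pearson intervals (95%) cover counting error. A floor of 3 reads, 0.0227 RPM at 5% O2 and 0.0734 RPM at 20% O2, bounds values at 0. Windows of 50 or 100 bases, taken every 10 bases along exons, were searched in 22 chromosome sequences. Python 3.11.15 was used with scipy 1.17.1, pandas 2.3.3, numpy 2.4.6, matplotlib 3.10.9 and numba 0.67.0, and the code was tested on simulated data.

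Members and lists were chosen with earlier results of these data known. Text names all members; in the rest of the pathway each gene at least 2-fold apart or without reads, and Lss, Sc5d and Dhcr7; in each other list the 3 largest differences, and Srebf2, Srebf1, Scap, Insig1, Insig2 and Por; and in each marker list the 3 highest levels. Lbr, Mvk and the markers and overlapping genes named beyond this rule were added after their values were seen. Some genes that the rule names are not reported here, though list counts and medians include them.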

Additional observations from a re-analysis of the deposited data

How the results depend on the processing

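No paired analysis was possible because the deposited columns pool the 2 libraries of a condition. Leaving out a replicate could not be run for the same reason. Every member kept its sign under all 8 alternatives, and Msmo1 stayed the single member at least 2-fold apart. Of these alternatives, only median-ratio scaling and quantile normalization could have changed the sign of a member. Under quantile normalization and median-ratio scaling, given here with the latter first, the log2 differences were 0.12 and 0.21 for Hmgcs1, 0.15 and 0.29 for Idi1, -0.70 and -0.55 for Fdps, 0.40 and 0.57 for Fdft1, 0.21 and 0.36 for Sqle, -0.49 and -0.35 for Cyp51, and -1.80 and -1.67 for Msmo1. Msmo1 was at -1.33 with a pseudocount of 5 RPM and at -1.28 per kb of exon. The length of a gene is the same in both columns. The per kb setting therefore shifts a difference only through the added 1, and its level filter of 1 was also per kb. In the same order, the medians became 0.12 and 0.21 for all members, -0.49 and -0.35 for the oxygen-using members, 0.14 and 0.25 for the others, -0.45 and -0.32 for the rest of the pathway, 0.17 and 0.31 for the redox partners, -0.42 and -0.27 for the prenyl branch, -0.47 and -0.32 for SREBP control, -0.65 and -0.51 for fatty acid synthesis, and -0.15 and 0.010 for uptake and storage, whose sign turned under median-ratio scaling. The fatty acid median was -0.24 per kb of exon and turned to 0.17 with no filter, which let in Scd1 and Scd2, and the prenyl median turned to 0.0013 for genes averaging 5 RPM or more.

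Over all genes, the number at least 2-fold higher in IV 5% O2, 2753 as reported, was 1700 with median-ratio scaling, 1609 per kb of exon, 1764 after quantile normalization, 1202 with a pseudocount of 5 RPM and 1691 for genes averaging 5 RPM or more. The number lower, 1356 as reported, was 706 with a pseudocount of 5 RPM and 899 per kb of exon, but 2031 with median-ratio scaling and 1866 after quantile normalization, more than the number higher in both. In the rest of the pathway the number higher went from 2 to 1 per kb of exon, under both scalings and with the pseudocount of 5 RPM, where Sc5d fell under 2-fold, and the number lower went from 2 to 1 per kb of exon, where Dhcr7 was at -0.97, and to 3 with median-ratio scaling (Tm7sf2 at -1.11) and with no filter (Mvk at -1.06). With only the bases before the start, the sterol element core stood in 2.58% of windows and the members holding each motif were as many as before. Depth is 3.23 times higher in IV 5% O2, and without values per library none of these differences has a replicate check.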

Other observations

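Lists next to cholesterol synthesis were measured in the same columns, where 18.7% of all genes were at least 2-fold higher and 9.22% lower in IV 5% O2 and the median of all genes was 0.26. In the prenyl branch, which draws on farnesyl diphosphate, 1 of 13 genes was at least 2-fold higher in IV 5% O2 and none was lower, with a median of -0.12 on log2(RPM + 1). Fnta, a subunit of the farnesyl and geranylgeranyl transferases, had 148 RPM at 5% O2 and 65.1 RPM at 20% O2 (log2 difference 1.17). Pdss2, which builds the tail of coenzyme Q, had 26.9 RPM and 14.4 RPM (0.86), and Pggt1b, a geranylgeranyl transferase subunit, had 32.9 RPM and 21.7 RPM (0.58). With median-ratio scaling, Fnta was at 0.85.

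Among genes of cholesterol uptake, transport and storage, 3 of 17 were at least 2-fold higher in IV 5% O2 and none was lower, a share of higher genes near that of all genes, and the median of 0.16 was under that of all genes. With median-ratio scaling, 1 was higher and 2 were lower, where 1700 of all 14634 genes were higher and 2031 lower. Gramd1c, of a family that moves cholesterol from the plasma membrane to the endoplasmic reticulum, had 26.9 RPM at 5% O2 and 3.62 RPM at 20% O2 (2.59). Scarb1, the HDL receptor, had 26.4 RPM and 10.3 RPM (1.28), and Mylip, a ubiquitin ligase, had 11.4 RPM and 4.94 RPM (1.06). With median-ratio scaling, Scarb1 was at 0.98 and Mylip at 0.78.

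Of the fatty acid synthesis genes that SREBP also controls, 1 of 7 was at least 2-fold higher in IV 5% O2 and none was lower, with a median of -0.34. Fads2, a desaturase, had 3.74 RPM at 5% O2 and 0.783 RPM at 20% O2 (1.41), while its neighbour Fads1 had 0.598 RPM and 1.83 RPM (-0.83). Fads2 and Fads1 each passed the level filter only through the column where the gene was higher. Me1, a source of NADPH, had 461 RPM and 276 RPM (0.73). Fads2 was at 0.60 with a pseudocount of 5 RPM, and Fads1 was past 2-fold, at -1.47, with a pseudocount of 0.1 RPM and, at -1.18, after quantile normalization.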
